A study of Drosophila melanogaster with 2 samples.

Results

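The genes described here encode the nuclear subunits of the mitochondrial respiratory chain and of the ATP synthase. They were chosen by name, as the protein-coding genes of the Ensembl annotation of the Drosophila melanogaster genome whose symbol begins with ND-, Sdh, UQCR-, COX or ATPsyn. The rule gave 88 of 13968 protein-coding genes. Of these, 63 are main subunits, 24 are paralogs whose symbol ends in L, L1 or L2 (testis-type copies, called L paralogs below), and 1, Sdhaf3, is an assembly factor of complex II. The main subunits fall into complex I (34 genes), complex II (4), complex III (6), complex IV (8) and complex V (11). The prefixes miss subunits with other symbols, such as blw and levy, which are given separately below.

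The respiratory chain passes electrons from NADH and succinate to oxygen through complexes I to IV of the inner mitochondrial membrane, and 3 of these complexes pump protons. Complex V, the ATP synthase, uses the proton gradient to make ATP. Most subunits are encoded in the nucleus, and in Drosophila several of them have a second gene copy that is used mainly in the testis.

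The study mapped the chromatin sites of B-H2, a Bar homeodomain transcription factor known for its roles in eye, sense organ and neuron development. Chromatin immunoprecipitation with sequencing was done on whole embryos aged 6 to 22 hours, of pooled sexes, from the B-H2-GFP line, which stably carries a transgene for B-H2 with GFP at its C terminus. There was 1 group of 2 biological replicates, numbered 1 and 3, and no embryos without the transgene or under another condition were analysed here. One age entry of the labels cannot be read as a time, and the hours come from the source name. The promoter that drives the transgene is not given in the sources used here. The antibody label names B-H2 and the assay label a transcription factor experiment, but the free-text field of each sample speaks of an input control, and the peak lists do not settle that conflict. The lists also hold no expression values, so whole embryo as the labelled material could not be checked against marker genes.

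The lists compared were each replicate's own 30000 peaks, 30000 peaks from the pooled reads, and the authors' optimal list of 4277 peaks. The last came from their irreproducible discovery rate (IDR) procedure, which compares the ranks of peaks between replicates. All 4277 are also peaks of the pooled list, and in signal they are its top. An IDR summit is thus one of high pooled signal and need not rank high in each replicate, as at SdhB below. A gene is said to have a summit where a peak's point of highest signal lay within 1 kb of one of its transcription start sites (TSSs). Signal is the authors' value for a peak, in their units, and ranks count from the strongest peak of a list. Signal can be ranked within a list but not compared between lists. Distances run from the gene's closest TSS to the summit, and a minus sign means upstream. Read depth is unknown, and 1 control alignment was used for the replicates and for their pool.

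The sequences at 4 summits show the places on which the values below rest, in coordinates of build dm6 and on the strand of the gene. They are the strongest IDR summit of a main subunit in complexes I, II, IV and V whose surroundings lie largely outside exons and on a chromosome arm printed here. The stretch at ND-ASHI (chrX:6679358-6679458, minus strand) reaches from 340 to 240 bases before its TSS, and its capitals mark the Bar-type site TAATTG. The stretch at SdhC (chr3R:11210108-11210208, minus strand) lies 359 to 259 bases before the TSS, and its capitals mark overlapping copies of TATCGA, the site of DREF and BEAF-32, on the 2 strands. COX5A (chr3R:11819488-11819547, plus strand) and ATPsynB (chr3L:9729939-9729998, plus strand) held none of the sites searched in the 60 bases shown.
ND-ASHI: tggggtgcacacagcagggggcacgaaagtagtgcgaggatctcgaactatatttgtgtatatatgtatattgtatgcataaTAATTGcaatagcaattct
SdhC: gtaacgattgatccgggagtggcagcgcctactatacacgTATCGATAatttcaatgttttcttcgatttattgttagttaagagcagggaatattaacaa
COX5A: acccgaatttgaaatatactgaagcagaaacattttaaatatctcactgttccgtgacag
ATPsynB: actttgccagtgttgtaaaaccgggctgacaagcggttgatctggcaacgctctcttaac

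Main subunits had an IDR summit in 36 of 63 cases (57.1%, exact 95% interval 44.0 to 69.5). Only 1 of the 24 L paralogs had one, COX7AL2 (4.17%, interval 0.105 to 21.1), and Sdhaf3 had none. The background over all protein-coding genes was 26.9%, so the share of main subunits lay above it and that of the L paralogs below it. Over all 88 genes the share was 42.0%, which mixes these classes. No test was run on these shares, and the intervals cover the counting of genes only.

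The same order held in the longer lists. In the pooled list, 52 main subunits (82.5%) and 6 L paralogs (25%) had a summit, against 57.3% of all protein-coding genes. In replicate 1 they were 55 main subunits (87.3%) and 6 L paralogs (25%), against 58.9% of all genes. In replicate 3 they were 57 main subunits (90.5%) and 6 L paralogs (25%), against 60.2% of all genes. The replicates therefore gave the same picture separately, at a much looser limit than the IDR list. Among the 4277 strongest peaks of each replicate, 35 main subunits (55.6%) and 1 L paralog had a summit in both, against 22.0% of all genes. No summit in any list was found for 5 main subunits (7.94%) and 16 L paralogs (66.7%), against 33.3% of all genes.

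**Figure D1:**
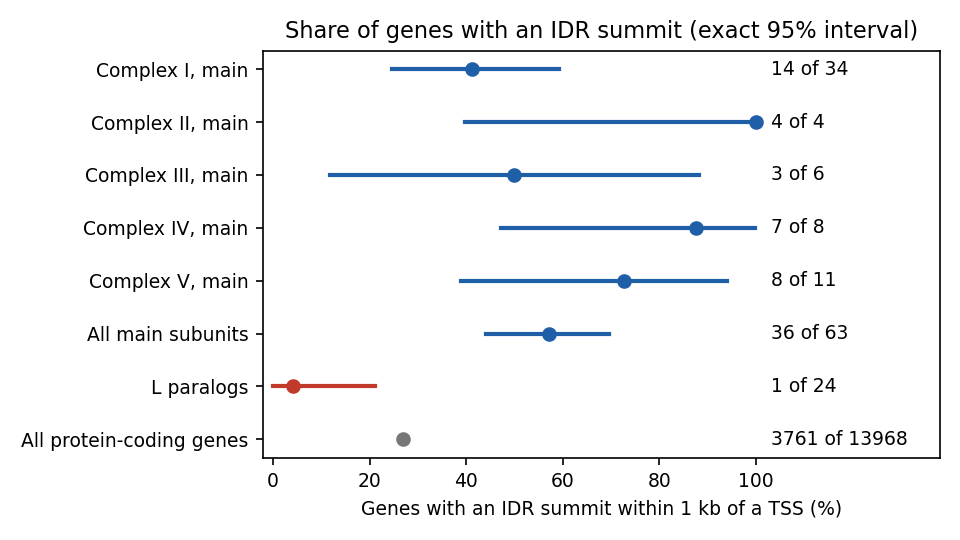
Percent of genes that had a summit of the IDR list within 1 kb, for the main subunits of each complex, all main subunits, the L paralogs and all protein-coding genes. Points are shares, lines exact 95% intervals, and the counts stand at the right. The points of all 5 complexes lie above the 26.9% of all genes, but the lines of complexes I and III cross it. The L paralogs lie below it with their whole line.

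By complex, complex II had an IDR summit at 4 of 4 main subunits, complex IV at 7 of 8 (87.5%) and complex V at 8 of 11 (72.7%). Complex III had one at 3 of 6 and complex I at 14 of 34 (41.2%). The intervals of the complexes overlap, from 24.6 to 59.3 for complex I and from 47.3 to 99.7 for complex IV, so their order is not resolved by these counts. Those of complex I and complex III (11.8 to 88.2) also include the 26.9% of all genes. In the pooled list every main subunit of complexes II, IV and V had a summit, against 25 of 34 in complex I and 4 of 6 in complex III.

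Complex I oxidises NADH. Its strongest summit lay upstream of ND-ASHI, an accessory subunit of the membrane arm (X, 6679240 to 6679515), with a signal of 688 and rank 98 in the IDR list. It ranked 103 in replicate 1 and 104 in replicate 3. This is the peak with the Bar-type site shown above. It lay 290 bp upstream of ND-ASHI but 232 bp from the TSS of Fum1, which encodes the citric acid cycle enzyme fumarase and is read in the opposite direction, so the peak cannot be given to either gene alone.

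ND-51, the subunit that binds FMN and takes electrons from NADH, followed with a signal of 376 (2L, 6062746 to 6063002), rank 421 in replicate 1 and 444 in replicate 3. Its summit lay 144 bp upstream and was nearer to the divergent gene CG13994. ND-B22, another accessory subunit of the membrane arm, had 338 at 34 bp upstream (2L, 13370951 to 13371149), with ranks 597 and 530 in replicates 1 and 3. ND-42, also an accessory subunit, had 332 at 79 bp upstream (3R, 22027573 to 22027753), with ranks 613 and 582. Its divergent neighbour is Cchl, which encodes the lyase that attaches heme to cytochrome c. These 4 genes were among the strongest in both replicates, and the ranks of each differed little between them.

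The other 10 complex I genes in the IDR list were ND-SGDH, ND-MNLL, ND-B8, ND-15, ND-24, ND-B18, ND-13B, ND-B17, ND-39 and ND-B15, with signals from 128 to 250. ND-SGDH, of the membrane arm, had 250 at 113 bp upstream (3L, 12138505 to 12138888), with rank 735 in replicate 1 and 1428 in replicate 3. ND-MNLL, also of the membrane arm, had 232 at 72 bp upstream (X, 7893678 to 7894061), with ranks 1043 and 1351, and CG45089 starts at the same distance. ND-B8 had 230 at 124 bp upstream (2L, 4454441 to 4454610), with ranks 938 and 1298, and Secp43 was nearer. These 3 were somewhat higher in rank in replicate 1.

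ND-15 had a signal of 207 at 36 bp upstream (2L, 155107 to 155490), 6 bp from the divergent gene Pus10. In replicate 3 its strongest summit lay at nearly the same place, 57 bp upstream, but in replicate 1 it lay 817 bp downstream. ND-B18 had 156 at 41 bp upstream (X, 15063803 to 15063906), with rank 3476 in replicate 1 and 2049 in replicate 3. ND-13B had 154 at 11 bp downstream (3L, 10694042 to 10694193), with ranks 2062 and 3078. Neither replicate was the stronger one for all of these genes. ND-B17 had 146 at 121 bp upstream (ranks 4196 and 2922). ND-39, of the matrix arm, had 133 at 409 bp upstream but 17 bp from the zinc transporter gene ZnT77C (ranks 2838 and 3176). ND-B15 was the lowest, with 128 at 125 bp upstream (ranks 4195 and 4065), and CG10151 was nearer, at 103 bp.

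ND-24, a core subunit with an iron-sulfur cluster, had a signal of 184 at 72 bp downstream of its TSS (X, 17631969 to 17632352), with rank 2262 in replicate 1 and 1989 in replicate 3. The core subunits, which carry out electron transfer and are conserved from bacteria, had an IDR summit in 2 of 7 nuclear genes, ND-51 and ND-24. ND-75, ND-49, ND-30, ND-23 and ND-20 had none. That is close to the share of all protein-coding genes, 26.9%, and the group was drawn up with the values known.

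Of the 20 complex I genes without an IDR summit, 11 had a weaker one in the pooled list. ND-B12 came nearest, with a pooled signal of 112 at rank 4283, just past the limit of the IDR list. ND-B14.5B followed with 102 at 864 bp downstream of its TSS, and ND-20 with 97.8 at 86 bp upstream. The lowest was ND-75, the largest core subunit, with 29.6 at rank 24293. ND-13A, ND-MLRQ, ND-19, ND-49, ND-B14.5A and ND-B16.6 lay between 91.4 and 52.8, and ND-B14.7 had 46.2. All 11 had a summit in both replicates as well. ND-20, a core subunit with an iron-sulfur cluster, ranked 9387 in replicate 1 and 4307 in replicate 3, and ND-B14.5B ranked 3878 and 6637. ND-49, a core subunit on chromosome 4, ranked 6963 and 14002.

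ND-MWFE, an accessory subunit, was strong in both replicates and yet absent from the pooled list within 1 kb. Its summits ranked 523 in replicate 1 (signal 154) and 924 in replicate 3 (signal 145). They lay 137 and 142 bp upstream of the TSS. ND-23 also had summits in both replicates, at ranks 4308 and 4611, with none in the pooled list. ND-ACP, the mitochondrial acyl carrier protein, had a summit only in replicate 1 (rank 12781), and ND-30 and ND-B14 only in replicate 3 (ranks 20680 and 14453). ND-18, ND-AGGG, ND-B17.2 and ND-PDSW had no summit in any list.

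**Figure D2:**
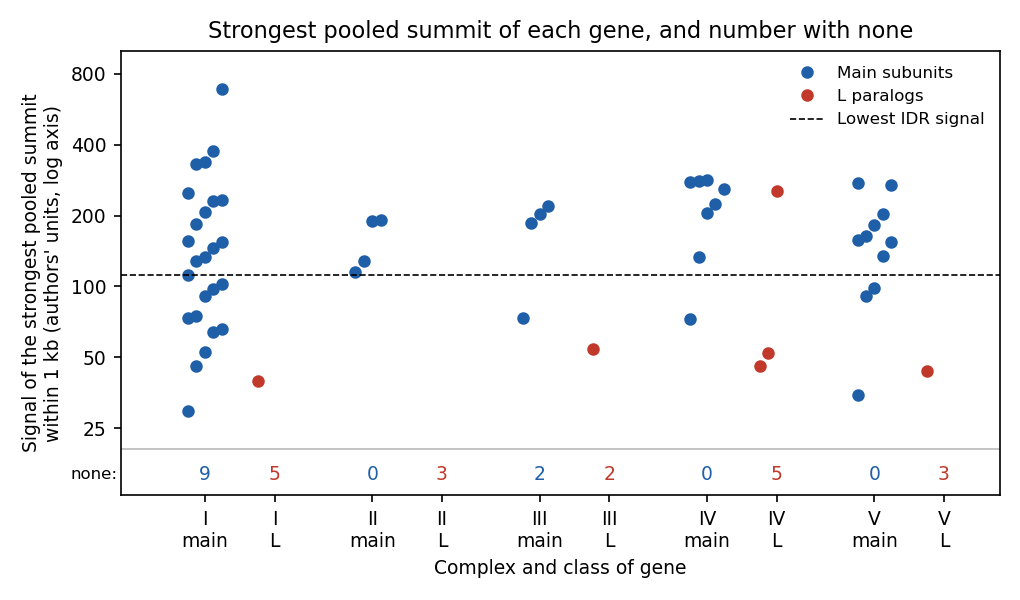
Signal of the strongest pooled summit within 1 kb of each gene's TSS, in the authors' units on a log axis, by complex and class. The dashed line is the lowest IDR signal, 112, and the numbers at the bottom count genes with no pooled summit. Complex I main subunits spread from 29.6 to 688, and COX7AL2 is the only L paralog above the line.

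Complex II, succinate dehydrogenase, takes electrons from succinate and is also an enzyme of the citric acid cycle. SdhD, a membrane anchor, had a signal of 191 at 6 bp from its TSS (3R, 23760402 to 23760785), with rank 2334 in replicate 1 and 1506 in replicate 3. SdhC, the other membrane anchor, had 189 at the peak printed above (3R, 11209966 to 11210349), 309 bp upstream, with ranks 1335 and 2239. That summit was 89 bp from the divergent gene Tctp.

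SdhA, the flavoprotein subunit, had 128 at 859 bp upstream, the nearest to the 1 kb limit from inside among the members' strongest IDR summits, and the gene cer was 58 bp from it. It ranked 3157 in replicate 1 and 3721 in replicate 3. SdhB, the iron-sulfur subunit, had 115 at 32 bp upstream, the lowest IDR signal of any member (2R, 6807402 to 6807785). It was the least repeatable of them, with rank 22245 (signal 18.2) in replicate 1 and 2135 (signal 94.5) in replicate 3. The assembly factor Sdhaf3 had a pooled signal of 96.1, with ranks 7112 and 6316. With the nearest TSS required to be their own, 2 of the 4 complex II genes kept an IDR summit, SdhD and SdhB.

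Complex III passes electrons to cytochrome c. UQCR-C2, a core protein, had a signal of 219 at 24 bp upstream (3L, 16584057 to 16584440), UQCR-14 had 202 at 11 bp upstream (X, 16286227 to 16286326), and UQCR-Q had 186 at 70 bp upstream (3L, 17474787 to 17475170). In replicate 1 these ranked 1393, 2349 and 2642, and in replicate 3 they ranked 1399, 1789 and 1559. All 3 were nearest to their own TSS. The other core protein, UQCR-C1, had a pooled signal of 73.3 and ranks of 25970 in replicate 1 and 6550 in replicate 3. UQCR-6.4 had a summit only in replicate 3, at rank 5528, and UQCR-11 had none in any list.

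Complex IV, cytochrome c oxidase, reduces oxygen to water. Its nuclear subunits surround a core made in the mitochondrion. Among genes with an IDR summit, the median signal of complex IV was 258 (7 genes). The medians were 219 for complex I (14 genes), 202 for complex III (3), 173 for complex V (8) and 159 for complex II (4). The median over all 3761 protein-coding genes with an IDR summit was 191. Genes without an IDR summit do not enter, so these medians do not order the complexes. COX5A, which had a signal of 284 at 61 bp upstream (3R, 11819447 to 11819574), ranked 811 and 806 in replicates 1 and 3. COX7B had 281 at 113 bp upstream (3L, 17425318 to 17425414), with ranks 940 and 736. COX5B had 277 at 268 bp upstream (2L, 6557475 to 6557608), 30 bp from IFT52, with ranks 1011 and 719.

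COX6B, with a signal of 258 at 50 bp upstream, ranked 1536 in replicate 1 and 696 in replicate 3. The starts of CG33932 and Rpp20 were nearer to that summit, at 46 bp. COX7C had 223 at 305 bp downstream of its TSS, 39 bp from that of oys, with ranks 1008 and 1422. COX8 had 204 at 84 bp upstream, between its TSS and that of VhaM9.7-b, a gene of the vacuolar proton pump, with ranks 1144 and 1877. COX4 had 134 at 108 bp upstream, with ranks 5586 and 3383. COX7A was the only one without an IDR summit, with a pooled signal of 73.1 and ranks of 10028 and 9520.

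Complex V had its strongest summits at ATPsynE (275 at 36 bp downstream, 3R, 14326849 to 14327088) and ATPsynB (270 at 10 bp upstream, 3L, 9729894 to 9730064), subunits of the membrane part and of the peripheral stalk. ATPsynE ranked 798 in replicate 1 and 1002 in replicate 3, but in replicate 1 its strongest summit lay 888 bp downstream, not at the same place. ATPsynB ranked 833 and 977. ATPsyngamma, the central shaft, had 202 at 82 bp upstream, and ATPsynO, the oligomycin sensitivity protein of the stalk, had 182 at 16 bp downstream. ATPsyngamma ranked 1084 in replicate 1 and 2275 in replicate 3, and ATPsynO the other way, 3060 and 1721.

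ATPsynbeta, the catalytic subunit, lies on chromosome 4 and had a signal of 164. Its summit was 507 bp upstream and 2 bp from the TSS of CG11076, and it ranked 1837 in replicate 1 and 3312 in replicate 3. ATPsynC, the rotor ring, had 158 at 24 bp upstream, and its strongest summit was 978 bp upstream in replicate 1 and 4 bp upstream in replicate 3. ATPsynD had 154 at 777 bp upstream, 47 bp from the TSS of cdi, and ATPsynF had 135 at 66 bp upstream, 60 bp from CG3548. By role in the enzyme, the catalytic head with its central stalk had 2 of 3 genes with an IDR summit, the peripheral stalk 3 of 4 and the membrane part 3 of 4. The share of all protein-coding genes was 26.9%. These groups are small and were drawn up with the values known, and the counts do not separate the parts.

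The complex V genes without an IDR summit were ATPsynCF6, ATPsynG and ATPsyndelta. ATPsynCF6 had its closest IDR summit at 1054 bp, just outside the limit, with a signal rank of 1210. Its strongest summits within 1 kb were at different places in the lists. The pooled one had a signal of 98.8 at 194 bp upstream, that of replicate 1 ranked 4796 at 10 bp upstream, and that of replicate 3 ranked 1803 at 987 bp upstream. ATPsynG had 91.0 and ATPsyndelta 34.7 in the pooled list.

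The L paralogs were low or absent in every list, apart from COX7AL2. That gene (2L, 2193470 to 2193853 for its strongest peak) had 3 IDR summits within 1 kb, with signals of 253, 190 and 136 at 652 bp upstream, 505 bp downstream and 906 bp upstream. Its strongest summit ranked 1072 in replicate 1 and 1017 in replicate 3, and its own TSS was the nearest. The other 5 L paralogs of the pooled list were UQCR-11L with a signal of 54.4, COX7AL with 52.3, COX7CL with 46.1, ATPsynepsilonL with 43.8 and ND-B14.5AL with 39.7. All 5 lay under the limit of the IDR list, at ranks from 11690 to 17216. SdhBL had a summit only in replicate 1 (rank 10657) and COX4L only in replicate 3 (rank 25856).

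No summit in any list was found for ND-20L, ND-24L, ND-49L, ND-51L1, ND-51L2, SdhAL, SdhCL, UQCR-14L, UQCR-6.4L, COX5BL, COX6AL, COX6AL2, COX6CL, ATPsynCF6L, ATPsynGL and ATPsynbetaL. The 24 L paralogs have 21 main counterparts, since ND-51, levy and COX7A each enter more than 1 pair, and their peaks count repeatedly. Paired with these counterparts, 13 of 24 L paralogs had no IDR summit where the main gene had one. COX7AL2 was the 1 case the other way, since COX7A had none, and in 10 pairs neither gene had one. In the pooled list the main gene had the stronger summit in 21 pairs and the L paralog in 2, COX7AL2 and UQCR-11L. Neither gene of the pair UQCR-6.4 and UQCR-6.4L had one. In replicate 1 the main gene was ahead in 19 pairs and the L paralog in 3 (COX7AL, SdhBL and COX7AL2), and in replicate 3 the main gene in 21 pairs and the L paralog in 3 (ND-B14.5AL, UQCR-11L and COX7AL2). ND-51, for example, ranked 417 in the pooled list, against no summit at ND-51L1 and ND-51L2. At ND-B14.5AL the summit lay 929 bp downstream of the TSS in replicate 3 and 664 bp upstream in replicate 1, not at the same place.

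Among the main subunits, the share was close in genes with and without an L paralog. An IDR summit lay at 10 of the 18 main subunits with an L paralog (55.6%) and at 26 of the 45 without one (57.8%). Counting counterparts outside the symbol rule (levy, cype and sun), 11 of 21 genes had one (52.4%).

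In 2 cases an L paralog lies just downstream of its main gene on the same strand. COX5B and COX5BL are 122 bp apart, with TSSs at a distance of 1631 bp, and COX7C and COX7CL are 281 bp apart, with TSSs at 1995 bp. The COX5BL start lay 1899 bp from the IDR summit of COX5B, and that of COX7CL 1690 bp from the IDR summit of COX7C. The 1 kb limit therefore sets these pairs apart, and it would join them at 5 kb.

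Over the 37 genes with one, the median distance was 79.0 bp, against 121 bp over all 3761 protein-coding genes with an IDR summit. The gap narrowed without replicate 3, to 124 bp for these genes and 129 bp for all genes, and with only the 5′ end of a gene as its TSS, to 113 and 130 bp. Without replicate 1 it was 76.0 bp for these genes and 122 bp for all genes. For main subunits it was 75.5 bp, and 28 of 36 (77.8%) lay within 150 bp, against 57.4% over all genes. Upstream summits made up 83.8% for these genes and 83.2% for all genes. The median signal was also near that of all genes, at 202 against 191. Of the 37 summits, 12 (32.4%) were among the strongest 25% of the IDR peaks, against 33.8% for all genes.

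**Figure D3:**
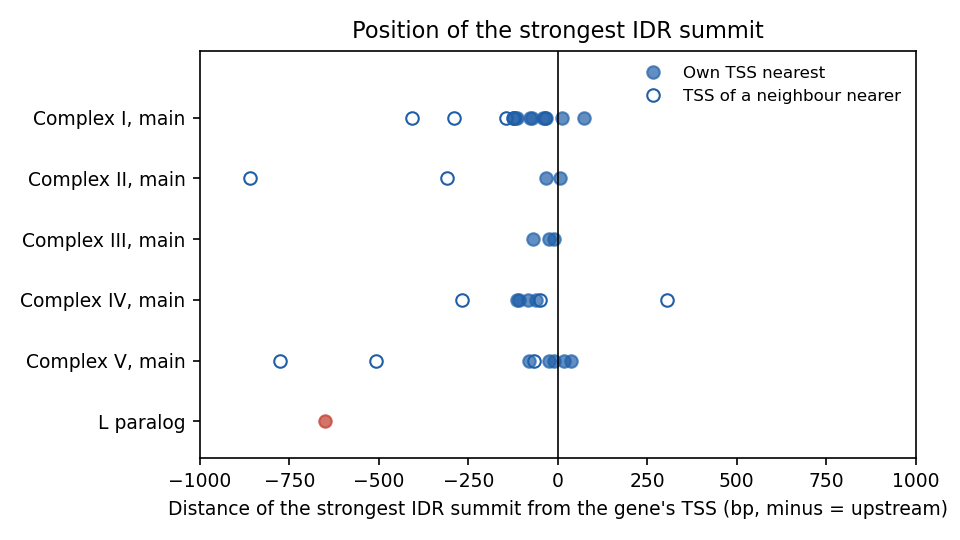
Distance of the strongest IDR summit from the gene's TSS in bp, minus meaning upstream, by complex for main subunits and for the L paralog COX7AL2. Filled points have their own TSS as the nearest and open points have a nearer neighbour. Most points lie within 150 bp, and all but 1 of those farther out than 150 bp among main subunits are upstream.

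Many of these promoters are shared with a neighbour. A gene on the other strand started within 1 kb upstream of 40 of 63 main subunits (63.5%) and 4 of 24 L paralogs (16.7%), against 36.2% of all genes. A summit between 2 such starts counts for both genes. Among genes with such a divergent partner, 57.5% of main subunits had an IDR summit (23 of 40, interval 40.9 to 73.0). That interval includes the 44.7% of all genes with such a partner. Among genes without one, 56.5% of main subunits had an IDR summit (13 of 23, interval 34.5 to 76.8), against 16.9% of all genes. The share of main subunits was thus close in both layouts, and that of all genes was lower without a partner. Main subunits also had more than 1 annotated TSS more often, at 50.8%, against 12.5% of L paralogs and 26.5% of all genes, and the part of this in the counts was not tested.

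With the rule that the gene's own TSS be the nearest of all to some IDR summit, 23 main subunits (36.5%) and 1 L paralog remained, against 19.5% of all genes. For 14 of the 36 main subunits the strongest IDR summit was nearer to a neighbour. No IDR peak was shared by any pair of these genes, and the 37 genes had 43 IDR peaks in all.

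By chromosome, the main subunits with an IDR summit were 6 of 12 on X, 7 of 12 on 2L, 5 of 11 on 2R, 8 of 13 on 3L, 9 of 13 on 3R and 1 of 2 on chromosome 4. The shares of all genes there were 23.5, 27.1, 26.8, 28.4, 27.9 and 36.2%. Of the 3L genes without an IDR summit, 3 lie near the centromere: UQCR-11 (25120709 to 25126171) had its closest IDR summit 2025277 bp away, ND-AGGG (24976254 to 24977118) 1880822 bp away and ND-MLRQ (23339326 to 23345936) 243894 bp away.

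Over the 37 genes with an IDR summit, ranks in replicates 1 and 3 correlated with a Spearman's rho of 0.815, and signals on the log10 scale with a Pearson's r of 0.746. Over the 3719 protein-coding genes with an IDR summit and a summit in both replicates, rho was 0.713 and r was 0.777. These correlations run across genes, which are not independent and were picked on the pooled signal of both replicates. Both replicates also share a control alignment. The summits of the 2 replicates lay a median of 28.0 bp apart, and more than 200 bp apart at ND-15, ATPsynE and ATPsynC. Of the 37 genes, 35 had a summit among the 4277 strongest of both replicates, and SdhB and COX4 did not.

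The largest differences in rank were at SdhB, by a factor of 10.4, and UQCR-C1, by a factor of 3.96. ND-B14.5A differed by a factor of 2.55 and COX6B by 2.21. The factor of 2.66 at ATPsynCF6 compares different peaks, as given above. ND-B14.5A was the only one of the 5 with the better rank in replicate 1, at 6686 against 17045 in replicate 3.

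**Figure D4:**
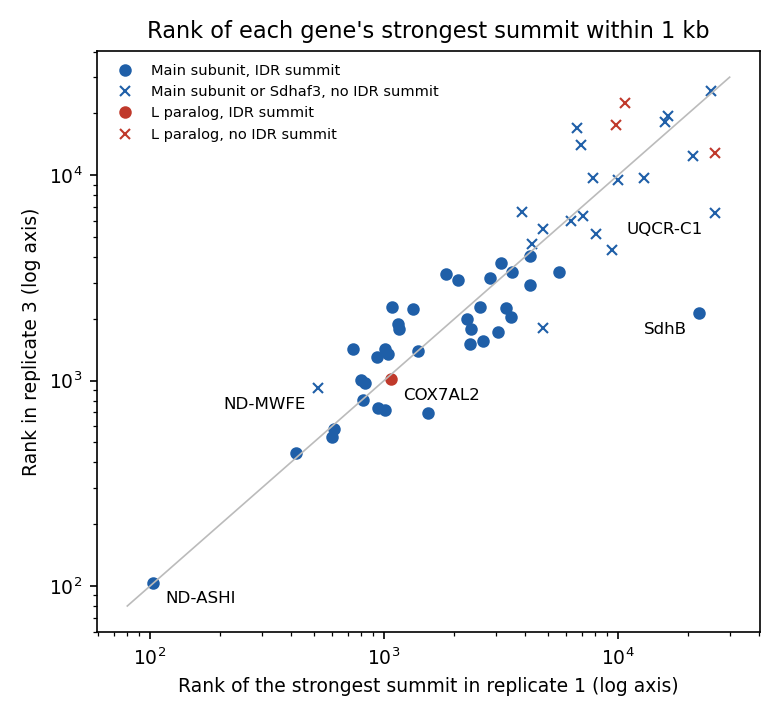
Rank of the strongest summit within 1 kb in replicate 1 (horizontal) and replicate 3 (vertical), both on log axes, for members with a summit in both. Filled points have an IDR summit, crosses do not, and the line marks equal ranks. Most points lie near the line, and SdhB at 22245 and 2135 and UQCR-C1 at 25970 and 6550 lie far below it.

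Among sites of promoter factors, the M1BP site GGTCAC had the widest gap between main subunits and L paralogs of the sites searched. M1BP is a zinc finger protein of Drosophila promoters that lack a TATA box. Sites were searched as fixed letters on both strands, from 250 bases before to 50 after the TSS. GGTCAC lay in 22 main subunit promoters (34.9%) and 1 L paralog promoter (4.17%), against 14.3% of all protein-coding genes. Its longer form GGTCACACT, which contains GGTCAC, lay in 15 main subunit promoters (23.8%) and 1 L paralog promoter (4.17%), against 5.91% of all genes. The longer form was searched after the values were seen. The lines below give GGTCAC, in capitals, with 12 bases on each side and on the strand on which it reads so, for sites that lie wholly before the TSS on the arms printed here, apart from 1 that is not shown. The sites shown are 10 in 9 genes, of which 6 read on as GGTCACACT.
ATPsynC (chr3R:31219779-31219808, minus strand): cactactgttatGGTCACactgcgcctatt
ATPsynD (chr3R:19094885-19094914, minus strand): taccctcgggtcGGTCACactatcagctgc
COX4 (chr2L:19958639-19958668, plus strand): cattcgagatgtGGTCACacttctctgcat
COX8 (chr3L:21539596-21539625, plus strand): caatgtcggtatGGTCACaatgcgtacaat
ND-ASHI (chrX:6679294-6679323, plus strand): aggaacagcgctGGTCACatgaatagcact
ND-B17 (chr2L:15751076-15751105, minus strand): atttaagagtgcGGTCACactggcggcaac
ND-PDSW, first site (chr2L:3466070-3466099, minus strand): ctggcacactgcGGTCACactggcttcgct
ND-PDSW, second site (chr2L:3466120-3466149, minus strand): gttcgaggtagtGGTCACacctatgccgca
UQCR-C2 (chr3L:16584233-16584262, minus strand): gcgctccaaaatGGTCACaccgagtaccag
COX7AL, the L paralog (chr3R:8343498-8343527, minus strand): aatgccaaattaGGTCACactattcgctct

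Among main subunits, GGTCAC was about as frequent with an IDR summit as without one. It lay in the promoter of 13 of 36 main subunits with an IDR summit (36.1%) and 9 of 27 without one (33.3%). Over all genes the shares were 18.2% with an IDR summit and 12.9% without. ND-PDSW, with 2 such sites printed above, had no summit in any list. Within 50 bp of the IDR summit itself, GGTCAC lay at 4 of 36 main subunits (11.1%), against 5.98% of all 3761 genes with an IDR summit. The longer form GGTCACACT lay there at 0 of 36, against 2.45%.

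The Bar-type site TAATTG, which homeodomain proteins of the B-H2 kind bind, lay in 20 main subunit promoters (31.7%) and 7 L paralog promoters (29.2%), against 25.2% of all genes. It was in 13 of 36 main subunit promoters with an IDR summit (36.1%) and in 7 of 27 without one (25.9%). Over all genes the shares were 24.9% with an IDR summit and 25.3% without. At the summit itself it lay within 50 bp in 3 of 36 cases (8.33%), against 9.04% of all genes, so ND-ASHI with its Bar-type site was one of few. TATCGA lay in 20 main subunit promoters (31.7%) and 6 L paralog promoters (25%), against 27.4% of all genes. Over all genes it was in 36.7% of promoters with an IDR summit and 23.9% of those without. Among main subunits the counts were 10 of 36 (27.8%) and 10 of 27 (37.0%).

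The E-box CAGCTG lay in 21 main subunit promoters (33.3%) and 2 L paralog promoters (8.33%), against 17.9% of all genes. The share of main subunits was 33.3% with and without an IDR summit. Over all genes it was 24.4% with an IDR summit and 15.5% without. At the summit CAGCTG lay within 50 bp in 6 of 36 cases (16.7%), against 7.07% of all genes with an IDR summit. TATAAA, the TATA box letters anywhere in the window, lay in 37 main subunit promoters (58.7%) and 10 L paralog promoters (41.7%), against 45.6% of all genes. TGCGCA, the core of the site of erect wing and the vertebrate factor NRF-1, lay in 4 main subunit promoters (6.35%) and no L paralog promoter, against 7.01% of all genes. The full NRG element, a site described for Drosophila nuclear genes of mitochondrial proteins, matched no member at these letters and 22 genes in all (0.158%). A match is only a run of letters and says nothing about binding.

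**Figure D5:**
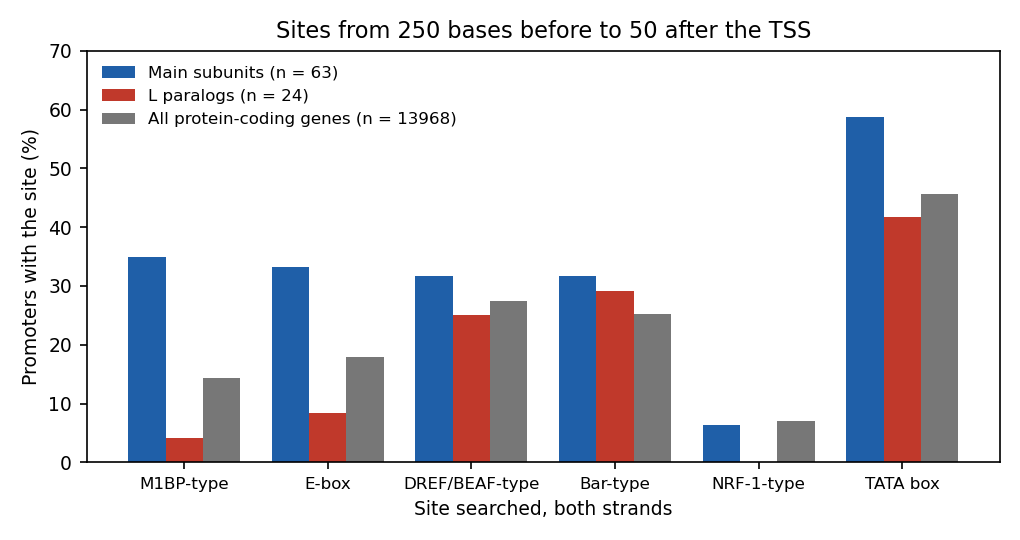
Percent of promoters, from 250 bases before to 50 after the TSS, that hold each of 6 fixed sites on either strand, for main subunits, L paralogs and all protein-coding genes. The M1BP-type site is at 34.9% of main subunits, 4.17% of L paralogs and 14.3% of all genes, and the Bar-type site at 31.7%, 29.2% and 25.2%.

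Among respiratory chain genes with other symbols, an IDR summit lay at 7 of 13 (53.8%, interval 25.1 to 80.8, which includes the 26.9% of all genes). Their own TSS was the nearest to an IDR summit in 3 of 13 (23.1%), against 19.5% of all genes. They were CIA30, an assembly factor of complex I (signal 698 at 110 bp upstream, rank 95), blw, the alpha subunit of the ATP synthase (350 at 126 bp upstream), the cytochrome c1 gene Cyt-c1 (231 at 723 bp upstream), levy, a subunit of complex IV (207), the complex III subunit ox (201), Cyt-c-d, the cytochrome c copy of the male germline (194), and RFeSP, the Rieske iron-sulfur protein of complex III (133). Those without one were the general cytochrome c gene Cyt-c-p (pooled signal 109), the complex IV subunit cype (97.5), the ATP synthase subunit sun (95), Surf1 (51.6), Cyt-c1L (40.2) and Scox, which had no summit in any list. Surf1 and Scox act in the assembly of complex IV. At the cytochrome c pair only the testis copy, Cyt-c-d, had an IDR summit within 1 kb. That summit lay downstream of the Cyt-c-d TSS and was nearer to the neighbour CG31808, so it cannot be given to Cyt-c-d alone. The pooled signal of 109 at Cyt-c-p fell just under the lowest IDR signal, 112, so the difference between the copies depends on the limit of the list. The case differs from COX7AL2, whose own TSS was the nearest to its strongest IDR summit.

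Of 11 genes of the citric acid cycle, which feeds electrons to the chain, 7 had an IDR summit. That is 63.6% (interval 30.8 to 89.1), against 26.9% of all genes. Idh3g and Idh3b, subunits of isocitrate dehydrogenase, had 761 and 317, Fum1 had the 688 of the peak it shares with ND-ASHI, and the aconitase gene mAcon1 had 289. Ogdh had 143, ScsbetaA 132 and ScsbetaG 120. The citrate synthase gene kdn, Idh3a, Scsalpha1 and Mdh2 had none. Of 5 regulators of nuclear genes for mitochondria, ewg (erect wing, 132) and Ets97D (133) had an IDR summit, and srl, TFAM and mtTFB2 did not. The share was 40.0%, with an interval of 5.27 to 85.3 that includes the 26.9% of all genes.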

How the data were processed

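Peak lists from 2 biological replicates of 1 group were used. Per the deposited file descriptions, the authors gave 4 lists on build dm6: each replicate, the pool, and the optimal IDR list. The signal score of each peak is the authors' own and was used to order peaks of the same list. Across lists it entered the correlation of the replicates and the SD of their median signals. The deposited −log10 q-value saturates and ranked nothing. The peak caller with its version and IDR threshold is not given in the sources used here. Chromatin was sheared by sonication to 200 to 800 bp, per the labels. Depth is unknown, so intervals (Clopper-Pearson, 95%) cover the counting of genes only.

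Summits were matched to 19630 TSSs of 13968 protein-coding genes (Ensembl release 115, BDGP6.54). Where a gene had several summits, the strongest was taken. The genome is the RefSeq copy of the dm6 assembly, whose arm lengths were checked against the annotation and the peaks. COX6CL was counted as an L paralog, of cype. Ogdh and Ets97D were found through older symbols. The rule for named genes took the 4 strongest main subunits of each complex, main subunits without an IDR summit, all L paralogs, the largest rank differences between replicates, those nearest the limits, and the other pathway lists, and the remaining main subunits with an IDR summit were added after their values were seen. Members, lists and roles were chosen with earlier results of these data known, so no test was run over them. Sites were searched in fixed windows, and the sequence of 1 match is not reported here. Counting was tested on simulated data. Python 3.11.15, numpy 2.4.6, pandas 2.3.3, scipy 1.17.1 and matplotlib 3.10.9 were used.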

Additional observations from a re-analysis of the deposited data

How the results depend on the processing

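Of 145 alternative values for the counts and medians, 123 stayed within 1.5 times the reported count or within 1 SD between the replicates, and 22 did not. L paralogs with an IDR summit numbered 0 within 250 bp, 0 within 500 bp and 3 within 5 kb (12.5%). The shares of all genes there were 20.8, 24.1 and 44.1%, and those of main subunits 46.0, 54.0 and 73.0%. Complex II had 2 genes within 250 bp, and complex III had 5 within 5 kb. With the stronger part of the IDR list only, complex I had 9 genes, complex II 2 and complex V 4, and the shares were 38.1% of main subunits and 16.4% of all genes. The median signal was 232. Within 5 kb the median signal was 233 and the median distance 1289 bp. The median distance was 113 bp with only the 5′ end of each gene as its TSS. Members with a strong summit in both replicates numbered 19 with the stronger part of each list and 19 with its 2000 strongest peaks. The share of all genes was not computed for these 2 settings. For main subunits with an IDR summit, the 50 bp around the summit held GGTCAC in 4, TAATTG in 3, TGCGCA in 0, CAGCTG in 6 and TATAAA in 7. Promoters of 500 bases held TAATTG in 21 (58.3%, against 42.5% of all genes with an IDR summit) and TGCGCA in 4 (11.1%, against 13.2%).

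With either replicate left out, an IDR-sized list of the other gave 37 to 39 members, 36 to 38 main subunits, 1 L paralog, 15 to 16 genes of complex I, 3 to 4 of complex II, 3 of complex III, 6 to 7 of complex IV and 8 to 9 of complex V. The shares of all genes with a summit were 27.5% without replicate 1 and 26.6% without replicate 3, and those of main subunits 60.3 and 57.1%. Members nearest to a summit numbered 24 to 26, and the share of all genes was not computed for that count. The median distance ranged from 76.0 to 124 bp, the higher value without replicate 3. Median signal was recomputed that way only to set its SD between the replicates (4.18). Each list has its own scale, so the limit of 1 SD for this median is rough and the medians are not given. COX6CL counted with the main subunits left 36 main subunits and 1 L paralog, an alternative chosen after seeing the data. The cause of these shifts was not tested. No paired analysis was possible because the study has 1 group.

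Depth, peak caller and input status are unknown, a single control alignment served all lists, and summits between divergent genes cannot be given to either gene.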

Other observations

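The gap at ND-MWFE was rare in these lists. Of the 3117 peaks among the strongest 4277 of replicate 1 that overlapped one of the strongest 4277 of replicate 3, 27 (0.866%) overlapped no pooled peak. Over all protein-coding genes, 31 had a summit among the strongest of both replicates and no pooled summit within 1 kb, and ND-MWFE was the only respiratory chain member among them. Any summit in both replicates with none in the pool was found at 219 genes, among them ND-MWFE and ND-23. The cause was not tested.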
